A study of Rattus norvegicus with 6 samples.

Results

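Txnip encodes thioredoxin-interacting protein, and its row, ENSRNOG00000021201, is 1 of the 22250 genes counted in each library. The row was chosen by this identifier, which is the Ensembl identifier of Txnip in the rat assembly Rnor_6.0. The deposited tables list identifiers without gene names, so the pairing of identifier and name was not checked against an annotation here. For the same reason, genes that work with Txnip, and markers of beta cells and of other cell types, were not found among the identifiers and were not analysed here.

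Txnip belongs to the α-arrestins, whose other members are Arrdc1, Arrdc2, Arrdc3, Arrdc4 and Arrdc5. The protein binds reduced thioredoxin and so limits the cell's capacity to reduce oxidized proteins, and it restrains glucose uptake by promoting the endocytosis of glucose transporters. In pancreatic beta cells its transcription rises with glucose, through the factors MondoA and ChREBP with their partner Mlx on carbohydrate response elements, and high Txnip is associated with beta-cell apoptosis. Txnip is also known as a gene that histone deacetylase inhibitors raise in several cell types.

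The question addressed was how the Class 1 HDAC inhibitor MS-275 (entinostat) changed transcripts of BRIN-BD11 cells, an insulin-secreting line made by electrofusion of RINm5F cells with pancreatic islet cells of the NEDH rat. The 3 control libraries are labelled WT, with no HDAC inhibitor, and the 3 treated libraries came from cells given 5 µM MS-275 in DMSO 24 h after seeding and kept in complete medium for 16 h before RNA extraction. Both groups were at passage 25 and in the same RPMI medium with serum, pyruvate and β-mercaptoethanol. By the study's text the controls received DMSO, but at another concentration than the labels give for the solution of MS-275, and the timing of the controls is not described separately. A matched vehicle is therefore not shown, and an effect of MS-275 and one of DMSO cannot be told apart where the concentrations differed. MS-275 was given at a single dose and time, and glucose was not a variable. The labels number the samples 1 to 3 in each group without saying that they are separate cultures, so the p-values measure the spread between these libraries, which may be technical.

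Libraries held between 5230555 and 9172422 counts on genes. A library's position was read as its displacement from the other 2 libraries of its group toward the mean of the other group, on the scale of log2(CPM + 1), where CPM is a count scaled to the size of its library, over 860 genes that were higher with MS-275 and whose mean reached 10 CPM. Control replicate 1 was displaced by a median of 13.1% toward the treated group, and MS-275 replicate 3 by a median of 9.75% toward the controls. In the other 4 libraries the median was between -7.73% and -2.40%, that is, away from the opposite group. Over 502 genes that were lower with MS-275, the median was 7.66% in control replicate 1 and 13.2% in MS-275 replicate 3. In the other 4 libraries it was between -13.6% and -1.31%. Since each library was set against the other 2 of its group, negative values follow in part by arithmetic from a positive one in that group. The higher and lower genes were called on the same libraries, so the displacements are a description. For Txnip, values are therefore also given below without these 2 libraries.

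Txnip had more reads in every MS-275-treated library than in any control. Control replicates 1, 2 and 3 gave 440, 343 and 258 counts. The MS-275-treated libraries 1, 2 and 3 gave 737, 739 and 984 counts. The gene thus rested on 1041 counts in the controls and 2460 with MS-275.

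Counts were scaled for library size with TMM, an edgeR factor that takes most genes as unchanged between libraries. At an adjusted p-value under 0.05 in edgeR's test, 4039 genes were higher with MS-275 and 3966 lower. The values are relative to that assumption, which was not tested. Txnip stood at 55.4, 42.2 and 44.6 CPM in control replicates 1, 2 and 3. It stood at 136, 145 and 110 CPM in MS-275 replicates 1, 2 and 3. The groups did not overlap: the gap between the lowest treated library and the highest control was 54.7 CPM, wider than the range within the controls, 13.2 CPM, and within the treated group, 35.0 CPM. The highest control was replicate 1 and the lowest treated library was replicate 3. These were the libraries displaced toward the opposite group over the higher and the lower genes described above. Of the 12596 genes with enough counts to be tested, 34.1% also had every treated library above every control, so a lack of overlap alone was common in these data.

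**Figure D1:**
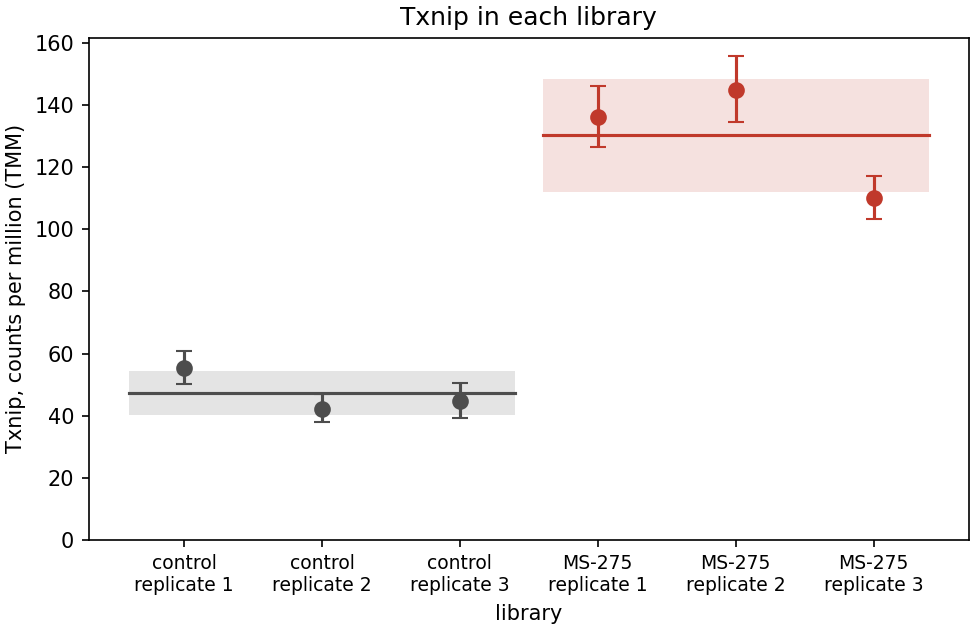
Txnip in CPM with TMM scaling (vertical axis) in each of the 6 libraries (horizontal axis), with bars for the 95% Poisson interval of the count, a line for the mean of each group and a band for its SD (n = 3). Controls span 42.2 to 55.4 CPM, whereas treated libraries span 110 to 145 CPM.

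The mean level rose from 47.4 ± 7.02 CPM (SD, n = 3) in control cells to 130 ± 18.2 CPM (SD, n = 3) in MS-275-treated cells. Relative to the mean, the spread was similar in both groups, with a coefficient of variation of 14.8% in the controls and 13.9% in the treated libraries. Counting error alone would give between 3.19% and 6.23% in single libraries, so the spread among replicates was wider than counting error. The 95% Poisson interval of control replicate 1, 50.3 to 60.8 CPM, did not reach that of control replicate 2, 37.8 to 46.9 CPM. Likewise the interval of MS-275 replicate 3, 103 to 117 CPM, lay below that of MS-275 replicate 1, 126 to 146 CPM. These intervals cover counting error only, and they may be too narrow even for that, since PCR-amplified reads are not independent molecules.

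MS-275 treatment upregulated Txnip 2.73-fold (95% interval 2.28 to 3.28). On the log2 scale the change was 1.45 with a standard error of 0.12, and edgeR's quasi-likelihood test gave an adjusted p-value of 1.52e-07 (Benjamini-Hochberg, over all tested genes). Every one of the 9 pairings of a treated with a control library gave a higher value with the drug. The lowest ratio was 1.99, of MS-275 replicate 3 to control replicate 1, and the highest was 3.44, of MS-275 replicate 2 to control replicate 2. A two-sided exact permutation test on the mean log2 CPM gave a p-value of 0.1, and with 3 libraries a group it cannot give a smaller one. In bulk RNA, more Txnip per cell and more cells with Txnip cannot be told apart.

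Without control replicate 1 the log2 fold change was 1.59, and without MS-275 replicate 3 it was 1.57. With both left out it was 1.72 (95% interval 1.51 to 1.92), with 2 libraries in each group. A wider difference follows from the choice of these libraries, which held the highest control and the lowest treated value of Txnip. For Txnip the displacement was 22.2% in control replicate 1 and 22.5% in MS-275 replicate 3, against medians of 13.1% and 9.75% over the genes that were higher. The upper quartile of those genes was 22.7% in control replicate 1 and 19.9% in MS-275 replicate 3, so Txnip lay just below it in the first and above it in the second. In the opposite direction, Txnip lay beyond the lower quartile in control replicate 2, at -17.1% against -14.7%, and in MS-275 replicate 2, at -17.8% against -8.03%. In control replicate 3 and MS-275 replicate 1 it lay between the quartiles. The negative values of Txnip likewise follow in part from its positive values in the same groups. What sets these libraries apart was not tested.

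**Figure D2:**
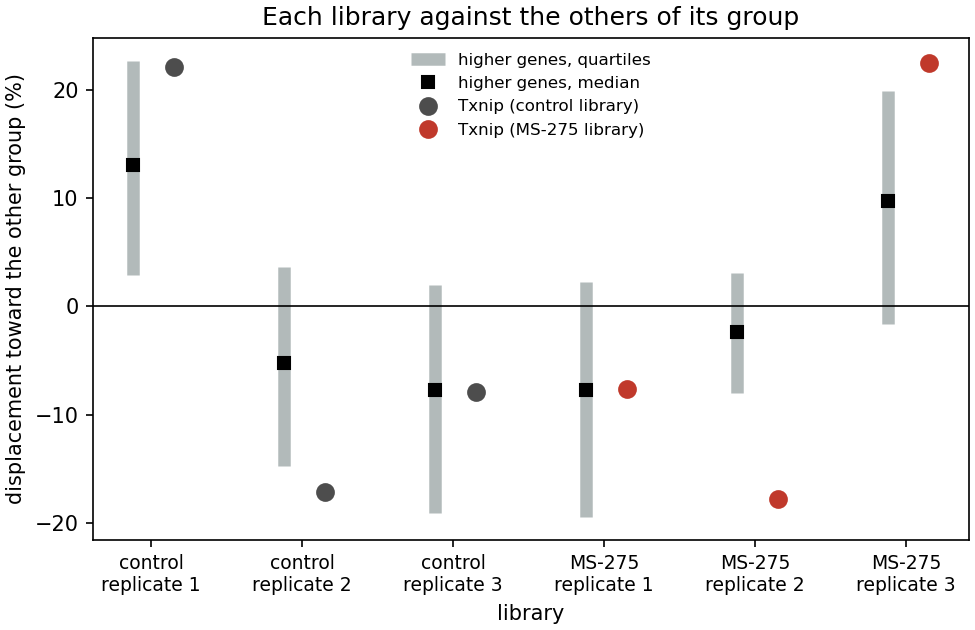
Displacement of each library from the others of its group toward the opposite group, in percent of the distance between the groups (vertical axis), for the 6 libraries (horizontal axis); circles are Txnip, squares the median and bars the quartiles of 860 genes higher with MS-275. Control replicate 1 and MS-275 replicate 3 are the libraries with a positive median, and Txnip has a positive value in the same libraries.

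The tables also hold alignments that fell on no gene or on more than 1 place, and Txnip can be set against all of them. In CPM of all alignments in a table instead of the counts on genes, Txnip rose from 15.1 ± 2.51 (SD, n = 3) in control cells to 38.0 ± 5.91 (SD, n = 3) in treated cells. On this scale the lowest treated library, at 31.3, was again above the highest control, at 17.9. Alignments at more than 1 place in the genome, which were not counted, made up between 7.95% and 8.19% of the alignments in the controls and between 8.70% and 9.19% with MS-275, without overlap. Alignments that fell on more than 1 gene, also not counted, made up between 0.172% and 0.178% in the controls and between 0.182% and 0.216% with MS-275, also without overlap. Most alignments fell on no gene: between 60.2% and 61.1% in the controls and between 60.7% and 61.9% with MS-275, with overlap. The tables do not say which genes the uncounted alignments came from, and their part in the values of Txnip was not tested. In RefSeq's annotation of the assembly GRCr8, which is not the assembly of the counts, no annotated gene overlaps Txnip, which lies between the long noncoding RNA gene LOC103691645 and the protein-coding gene Polr3gl.

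Txnip was 1 of many genes upregulated by MS-275. At an adjusted p-value under 0.05 and a log2 fold change of at least 1, 1754 genes, or 13.9% of those tested, were called higher, and Txnip was among them. At the adjusted p-value alone, 32.1% of the tested genes were higher. Its fold change was larger than that of 91.1% of all tested genes, whose median was -0.01. Among the 1754 higher genes, however, it ranked 1123rd, below the median of 1.73 and above the lower quartile of 1.29, and 64.0% of them rose more than Txnip. The standard error of its log2 fold change was smaller than that of most of these genes, with 13.4% of them below it. A further 559 tested genes had a log2 fold change within the 95% interval of Txnip, from 1.19 to 1.71, so its exact rank is not resolved.

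**Figure D3:**
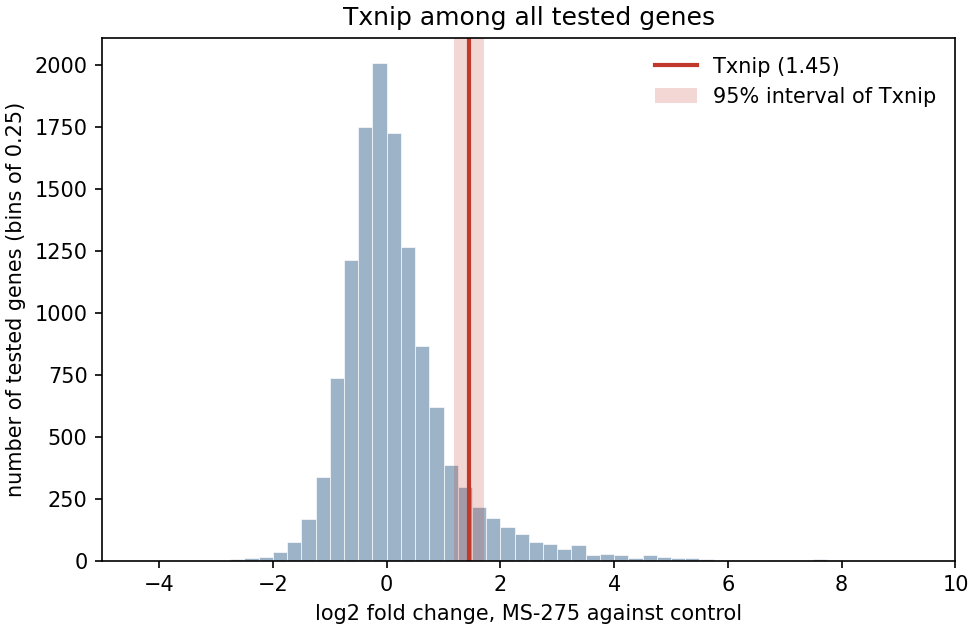
Number of tested genes (vertical axis) by log2 fold change between MS-275 and control (horizontal axis, bins of 0.25), with Txnip as a line at 1.45 and its 95% interval from 1.19 to 1.71 as a band. Txnip lies on the right shoulder of the distribution, with 8.92% of the tested genes at or above it.

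Variation between replicates was moderate for Txnip. Its biological coefficient of variation, the replicate spread that edgeR estimates beyond counting error, was 0.100, against 0.0810 on the trend for genes of this level and 0.0880 over all tested genes. The estimate for Txnip was thus somewhat above the trend. edgeR draws the estimate of each gene toward the trend, so its closeness to the trend is partly built in. Without this step, the coefficient of variation of the CPM was 14.8% in the controls and 13.9% in the treated libraries, counting error included.

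Genes most like Txnip in pattern were those with the highest Pearson correlation with it of log2(CPM + 1) over the 6 libraries, among 9918 other tested genes whose mean reached 10 CPM. The highest was ENSRNOG00000002553, with r = 0.999 and a log2 fold change of 1.40. It had 7.55, 6.02 and 6.06 CPM in control replicates 1, 2 and 3 and 18.5, 19.0 and 15.2 CPM in MS-275 replicates 1, 2 and 3.

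The next, ENSRNOG00000005592, also had r = 0.999 over the 6 libraries. Its levels were 9.18, 6.88 and 6.75 CPM in the controls and 22.2, 24.1 and 18.4 CPM with MS-275, a log2 fold change of 1.48. The lowest correlation among the 5 most alike genes was 0.998. Since they were chosen for their likeness to a gene whose groups do not overlap, their higher level with MS-275 and their order of libraries come from the choice and are not results. In each of the 5, every control lay under 10 CPM, so they passed the minimum on the mean through the treated libraries. High correlations were frequent at a lower bound: 14.6% of the 9918 genes had r of at least 0.95 with Txnip and 16.5% had r of -0.95 or below. The correlations are given as a description, and the libraries also share their scaling.

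**Figure D4:**
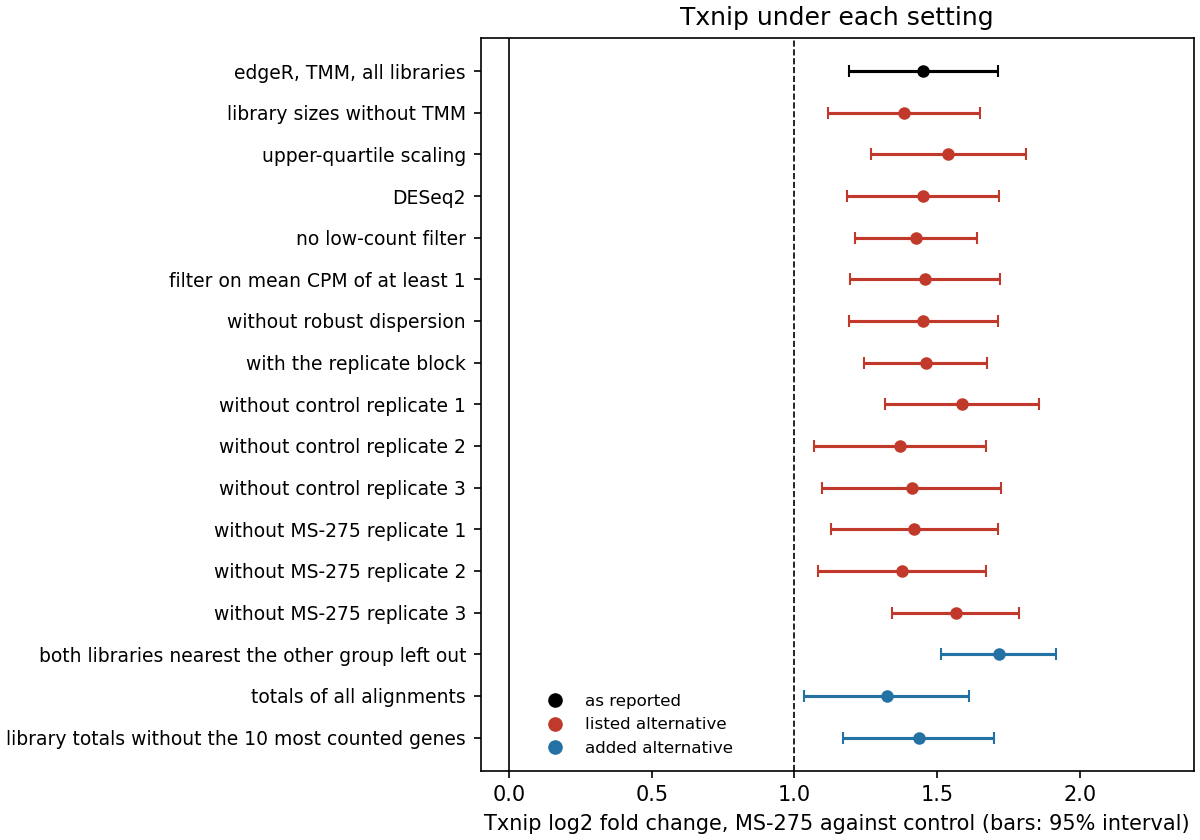
Log2 fold change of Txnip between MS-275 and control (horizontal axis) under each way of processing the counts (vertical axis), with bars for the 95% interval; the solid line marks 0 and the dashed line 1. Estimates range from 1.32, with totals of all alignments, to 1.72, with both displaced libraries left out, and the lowest bound of any interval is 1.04.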

How the data were processed

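RNA of 6 BRIN-BD11 libraries was sequenced as paired-end Illumina reads. After filtering contaminants with bowtie2 and aligning with STAR to the rat genome Rnor_6.0, the authors deposited raw read counts per gene for each library. The submitters' processing notes list STAR 0.27 and Trimmomatic 0.36. According to the methods the counter was featureCounts, but each table closes with 5 lines in the format of htseq-count. They name no gene and held between 68.6% and 70.8% of the alignments. Only the values and the alternative scaled by all alignments use totals that include these lines. Strand setting and annotation release are not given in the sources used here. The authors' own table of group means, fold changes and p-values was not used.

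Groups and replicate numbers came from the sample titles. Genes were kept with filterByExpr and tested with edgeR 4.0.16 (R 4.3.3): TMM factors between 0.976 and 1.03, robust quasi-likelihood fit, no block, Benjamini-Hochberg adjustment over 12596 genes. The standard error is the log2 fold change over the square root of F. The fits were tested on simulated data. Alternatives were DESeq2 1.42.0, other scalings and filters, a replicate block and leaving out libraries.

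Txnip and the lists of genes were chosen with earlier results of these data known. The rule for named genes was Txnip, members of 11 lists of pathway genes and cell type markers, and the 5 genes most alike in pattern, of which at most 2 that rose and 2 that fell were to be given by identifier if identifiers had no names. The RefSeq table used here (GRCr8) gives an Ensembl identifier for 0 of its genes. The 102 listed symbols could therefore not be paired with identifiers, and no list was described.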

Additional observations from a re-analysis of the deposited data

How the results depend on the processing

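Txnip was higher with MS-275 under each of the 16 alternatives, with a log2 fold change between 1.32 and 1.72. Each gave an adjusted p-value of at most 6.29e-06 (edgeR's quasi-likelihood test or DESeq2). Of the 16, 3 were chosen after seeing the data: omitting both displaced libraries (1.72), all-alignment scaling, and totals without the 10 most counted genes. With each library left out in turn the log2 fold change was between 1.37 and 1.59. Scaling by all alignments moved the median of all tested genes from -0.01 to -0.14 and gave the lowest value for Txnip, 1.32. It also took the share of higher genes among calls past both thresholds from 73.0% to 61.4%, and past the p-value alone from 50.5% to 40.1%. Upper-quartile scaling moved them the other way, to 79.1% and 58.3%, with the median at 0.08. The number of genes with a log2 fold change at least that of Txnip was 1124, and between 1007 and 1205 under the alternatives where counted over the genes of the reported fit alone. Over every gene an alternative tested, it was 3118 of 16846 without the low-count filter, 2569 of 16846 with DESeq2 and between 1065 and 1299 otherwise. The counts of called genes were within 1.5 times of those reported in every fit. A fold threshold of 2 on the log2 scale, stricter by construction, left 681 higher and 34 lower genes in place of 1754 and 650, without Txnip.

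With 3 replicate numbers, pairing cannot be decided. Deviations from the group means correlated at 0.17, -0.02 and 0.14 for numbers 1, 2 and 3. Of the 3 controls, 2 correlated best with the treated library of their number. With the replicate block the log2 fold change of Txnip was 1.46 and 1763 genes were higher and 674 lower past both thresholds. The smallest number of Txnip counts in a library, 258, leaves a counting error of 6.23%.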
